A study of Mus musculus with 2 samples.

Results

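The class I antigen presentation genes described here are the 10 features, of 32589 in the files, whose symbols are H2-K1, H2-D1, H2-Q7, H2-T23, B2m, Tap1, Tap2, Tapbp, Psmb8 and Psmb9. They were chosen by symbol, and all 10 were found in both libraries. Single cells were profiled from the prefrontal cortex of C57BL/6 mice given either vehicle or, by oral gavage, corticosterone, a stress hormone of the adrenal gland, which the submitters describe as a model of depression with an excess of that hormone. Cells were sorted for low CD45 and for CD11b, surface proteins used to gate microglia, and there was 1 library per group. No other allele or agent was named for either group, and age, sex, dose, duration and the number of pooled animals were not given in the sources used here. The deposited files carry the words wild type and depression, and each was placed in the vehicle or the corticosterone group through its sample title.

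Class I molecules display peptides from proteins made inside the cell to CD8+ T cells and to receptors of natural killer cells. A heavy chain pairs with the light chain B2m in the endoplasmic reticulum, where the peptide transporter Tap1 with Tap2 delivers peptides cut by the proteasome and Tapbp, the bridging protein tapasin, holds the empty complex at the transporter. Interferons are known to raise these genes and to replace catalytic proteasome subunits with Psmb8 and Psmb9, and microglia of the healthy brain are known for little class I protein at the surface.

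Of the 10 genes, 9 lie in the major histocompatibility complex on chromosome 17 and B2m lies on chromosome 2 (GRCm38, GENCODE M21; all are protein-coding). The heavy chain genes are H2-K1 at chr17:33996017-34000347 on the minus strand, H2-D1 at chr17:35262730-35267499 on the plus strand, H2-Q7 at chr17:35439155-35443773 on the plus strand and H2-T23 at chr17:36029773-36032855 on the minus strand. B2m spans chr2:122147686-122153083 on the plus strand. Tapbp spans chr17:33915899-33929292 on the plus strand. The other transport and proteasome genes are neighbours, with Psmb9 at chr17:34181987-34187764 on the minus strand and Tap1 at chr17:34187553-34197225, Psmb8 at chr17:34197721-34201454 and Tap2 at chr17:34203527-34216321 on the plus strand. The annotated spans of Psmb9 and Tap1 overlap head to head, and their RefSeq start sites lie 226 bases apart on opposite strands.

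Promoter windows of 300 bases (250 before to 50 after a RefSeq start, build GRCm38.p6) were found for 9 of the 10 genes, in 10 windows since H2-K1 had a pair of starts, and Tap2 was not matched. They were searched on both strands for the spellings GGGGATTCCC and GGGACTTTCC of the site of NF-kB, a factor activated by inflammatory signals, for GAAANNGAAA, a core of the interferon-stimulated response element, for TTCNNNGAA, a core of the interferon gamma-activated site, and for CCAAT, the box bound by NF-Y. These stretches are shown because H2-K1, H2-D1 and H2-Q7 have both GGGGATTCCC and GTTTCACTTC and B2m and H2-T23 have GAAANNGAAA, while the genes behind them differed between the libraries by unlike amounts. Capitals mark the matches, and each stretch is read 5′ to 3′ on the strand of its gene. The NF-kB spellings were read from the promoters of H2-K1 and B2m and the word GTTTCACTTC from that of H2-K1, so their matches in those genes are given by that choice; GTTTCACTTC was added after the sequences had been seen.
H2-K1, chr17:34000429-34000458, minus strand: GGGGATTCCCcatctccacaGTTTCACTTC
H2-D1, chr17:35262923-35262952, plus strand: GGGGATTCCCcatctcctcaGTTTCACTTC
H2-Q7, chr17:35439022-35439050, plus strand: GGGGATTCCCatctccccaGTTTCACTTC
H2-T23, chr17:36032806-36032835, minus strand: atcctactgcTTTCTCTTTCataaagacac
B2m, chr2:122147548-122147570, plus strand: GAAACTGAAAatgGGAAAGTCCC

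GGGGATTCCC and GTTTCACTTC stood in the promoters of H2-K1, H2-D1 and H2-Q7, 3 of the 9 genes, against 0.107% and 0.140% of 32851 RefSeq promoter windows. The stretches of H2-K1 and H2-D1 had 29 of 30 bases in common. GAAANNGAAA matched in B2m and, on the opposite strand, in H2-T23, 2 of the 9 genes, against 3.44% of all windows. Only this spelling of that element was searched, so its absence from the other genes does not show that they lack an interferon element. GGGACTTTCC matched on the opposite strand in B2m, against 0.155% of all windows, TTCNNNGAA matched in Psmb8, against 8.30%, and CCAAT matched in 8 of the 9 genes, against 37.4%. The stretches of H2-D1 and H2-T23 lie inside GENCODE models that begin further upstream than RefSeq's, and the B2m stretch lies within the span of Patl2 on the other strand. These are matches of letters, and binding was not measured. The B2m and H2-K1 matches are also shown in the sequence that runs from them towards the start, with the CCAAT box (read here as ATTGG) in capitals as well.
H2-K1, chr17:34000348-34000478, minus strand: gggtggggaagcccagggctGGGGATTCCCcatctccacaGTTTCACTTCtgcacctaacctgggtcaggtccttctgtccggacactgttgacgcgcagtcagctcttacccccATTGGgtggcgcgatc
B2m, chr2:122147528-122147676, plus strand: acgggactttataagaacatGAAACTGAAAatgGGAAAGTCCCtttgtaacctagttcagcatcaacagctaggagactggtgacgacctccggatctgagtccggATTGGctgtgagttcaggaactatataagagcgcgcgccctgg

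After filtering, 10500 vehicle cells carried 49325067 UMIs (molecular tags, each counting 1 captured transcript), a median of 3220.5 per cell, and 17883 corticosterone cells carried 85103539, a median of 3961. The median mitochondrial share per cell was 2.67% and 4.20%. The libraries had 104 cell barcodes in common, 101 of them among the cells kept. Clusters were named from marker genes, so class names here are rebuilt. Microglia-like cells numbered 8293 in vehicle and 15459 in corticosterone, border-associated macrophage-like cells 1170 and 775, neutrophil-like cells 438 and 397, monocyte-like cells 48 and 110 and erythroid-like cells 26 and 8, and a cluster of low-UMI barcodes, 525 and 1134, was left unnamed. All 10 microglia markers were found in the microglia-like cells of both libraries, at a summed level of 36672 and 33911 CPM (UMIs per 1e6 UMIs of the class in that library). Different clusters held most microglia-like cells of each library. In vehicle, 7498 were in a cluster with Pecam1 and Myo18b among its leading genes, and in corticosterone 7846 and 6847 were in clusters led by Adamts1, Il1b and Gpr84 and by Ifi30, Cd34 and Sdf2l1.

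In microglia-like cells, 9 of the 10 genes had a higher level in the corticosterone library and H2-Q7 had a lower one. The excess was 2.11-fold for the transporter subunit Tap1 and 1.70-fold for H2-T23, while H2-K1 and Psmb9 differed by 1.13-fold and 1.12-fold. The peptide transport and loading genes had a median log2 ratio (corticosterone over vehicle) of 0.61, the immunoproteasome pair 0.36, the light chain 0.27 and the 4 heavy chains 0.26. Over all 10 genes the median was 0.45, beside -0.015 over the 9691 genes with a mean of at least 5 CPM. With 1 library per group, no difference below has a replicate check and no p-value was computed. Brackets give 95% exact intervals that cover counting error only, and treatment, library and preparation cannot be told apart.

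**Figure D1:**
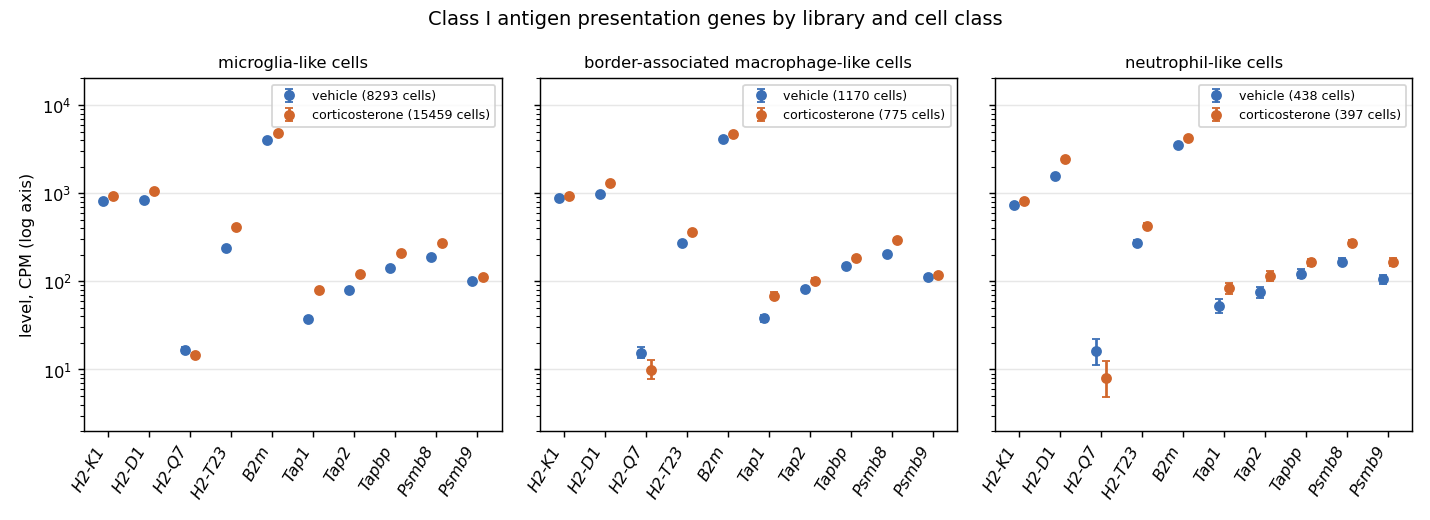
Level of each class I gene in CPM (log axis) in microglia-like, border-associated macrophage-like and neutrophil-like cells, with 1 point per library and bars for 95% exact Poisson intervals. In microglia-like cells Tap1 stands at 37.7 CPM in vehicle and 79.6 in corticosterone, and H2-Q7 is the only gene whose vehicle point is the higher one in all 3 classes.

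Among the heavy chains, H2-K1, a classical chain that presents peptides to CD8+ T cells, stood at 817 CPM in the vehicle library and 920 CPM after corticosterone, a log2 ratio of 0.17 [0.15, 0.19]. H2-D1, the other classical chain, stood at 845 and 1069 CPM, a log2 ratio of 0.34 [0.32, 0.36]. The classical chains were thus both higher in corticosterone, H2-D1 by more than H2-K1 with intervals that did not overlap. H2-T23, the non-classical chain Qa-1, which shows leader peptides of other class I chains to an inhibitory receptor of natural killer cells, stood at 241 and 409 CPM, a log2 ratio of 0.76 [0.73, 0.80]. H2-Q7, a Qa-2 chain, stood at 16.6 and 14.6 CPM, a log2 ratio of -0.19 [-0.34, -0.04], and rested on 558 and 1059 UMIs. H2-Q7 and H2-D1 hold the same pair of promoter words shown above and lay on opposite sides of 0.

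B2m, the light chain that every class I heavy chain of this list pairs with, stood at 3994 and 4821 CPM, a log2 ratio of 0.27 [0.26, 0.28]. Its ratio lay between those of H2-K1 and H2-D1, and 81.5% of the 9691 genes had a lower one.

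The transport and loading genes were all higher in corticosterone. Tap1, which with Tap2 forms the pump that moves peptides into the endoplasmic reticulum, stood at 37.7 and 79.6 CPM, a log2 ratio of 1.08 [0.99, 1.17]. Tap2 stood at 78.8 and 120.3 CPM, a log2 ratio of 0.61 [0.55, 0.68]. The intervals of the transporter's partner subunits did not overlap. Tapbp stood at 140.8 and 207 CPM, a log2 ratio of 0.56 [0.51, 0.61]. Tap1 was the single member past 2-fold, 1 of 10 higher and 0 of 10 lower, where 2.22% of the 9691 genes were higher and 2.08% lower by 2-fold or more. A ratio above 0 was held by 9 of the 10 members and by 48.1% of the genes. In 98.1% of the genes the ratio was below that of Tap1, in 96.4% below that of H2-T23 and in 94.6% below that of Tap2, against 72.5% for H2-K1 and 28.9% for H2-Q7.

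The immunoproteasome subunits differed from each other. Psmb8, which takes the place of Psmb5 in the proteasome core, stood at 187 and 275 CPM, a log2 ratio of 0.55 [0.51, 0.60]. Psmb9, which takes the place of Psmb6, stood at 99.6 and 111.1 CPM, a log2 ratio of 0.16 [0.10, 0.22]. The head-to-head neighbours Tap1 and Psmb9 thus stood at 1.08 and 0.16 in the same cells. Whether the counting used strand is not given in the sources used here, so reads from their overlap could be split either way. That overlap lies only where both genes begin, and the part of such reads in these values was not tested.

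**Figure D2:**
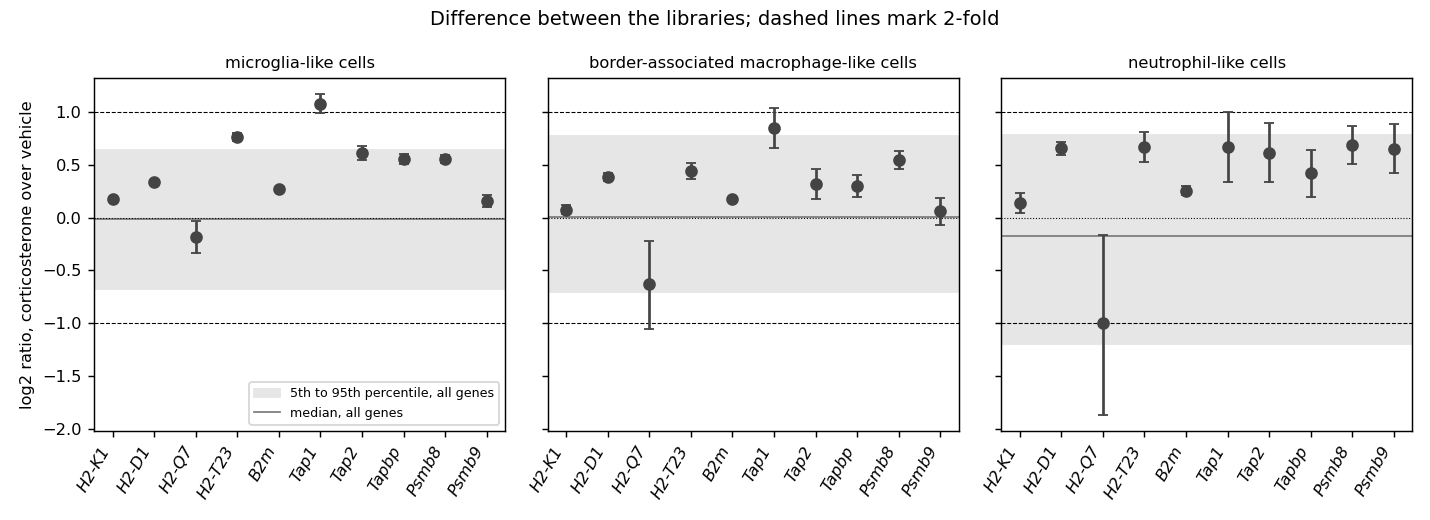
Log2 ratio of corticosterone over vehicle for each class I gene in 3 cell classes, with bars for 95% exact intervals that cover counting error; the grey band spans the 5th to the 95th percentile of all genes at 5 CPM or more, and dashed lines mark 2-fold. In microglia-like cells Tap1 at 1.08 and H2-T23 at 0.76 lie above the band, whose upper edge is at 0.64, and H2-Q7 lies below 0 in each class.

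Scaling moved these values together. edgeR's TMM factors added 0.10 and DESeq2's size factors 0.11 to every log2 ratio in microglia-like cells, and 0.18 by either tool in neutrophil-like cells, and they shifted border-associated macrophage-like cells by -0.01 and 0.0035. No member changed direction under either, and in microglia-like cells H2-Q7 came closest to 0, at -0.076 with DESeq2's factors. Among all genes past 2-fold in microglia-like cells, 51.6% were the higher ones with total counts, 61.8% with TMM and 62.1% with DESeq2's factors, and in neutrophil-like cells 26.5%, 46.6% and 46.2%.

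Per cell, class I transcripts were counted after thinning each cell to 1000 UMIs, which left 7629 vehicle and 15359 corticosterone microglia-like cells and set aside 664 and 100 shallower ones. The median cell held 6 member UMIs in vehicle and 7 in corticosterone, with means of 6.33 and 7.96, and it showed 3 of the 10 genes in each library. B2m was found in 96.5% [96.0, 96.9] and 97.8% [97.6, 98.1] of cells. H2-K1 was found in 52.0% and 56.3% and H2-D1 in 52.8% and 60.6%, so the classical chains were seen in over 50% of cells in both libraries. H2-T23 was found in 20.0% [19.1, 20.9] and 32.3% [31.6, 33.1], Tap1 in 3.57% [3.16, 4.01] and 7.25% [6.85, 7.67], and Tap2 in 7.39% and 11.3%. These shares were higher in corticosterone with intervals that did not overlap, as were those of Tapbp, at 12.3% and 18.0%, and of Psmb8, at 16.1% and 23.02%. Psmb9, at 8.81% [8.18, 9.47] and 9.98% [9.51, 10.5], came close to overlap, and the intervals of H2-Q7 overlapped at 1.56% [1.29, 1.86] and 1.33% [1.15, 1.52].

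Without thinning, Tap1 was seen in 12.6% and 27.1% of microglia-like cells, H2-T23 in 49.4% and 74.7% and B2m in 98.3% and 99.8%, at median depths of 3172 and 4004 UMIs. Erythroid-like cells, which make little class I, gave a background that may be too low. Their summed erythroid markers stood at 800626 CPM in vehicle and 666772 in corticosterone, which left few UMIs for other RNA. Among the 16 vehicle erythroid-like cells with enough UMIs (median depth of the class 3594 UMIs), B2m was found in 25.0% [7.27, 52.4], H2-D1 in 18.8% [4.05, 45.6] and H2-K1 and Psmb8 in 6.25% [0.158, 30.2] each. H2-T23, Tap1, Tap2, Tapbp, Psmb9 and H2-Q7 were found in 0 of the 16 cells, with an interval up to 20.6%. The B2m, H2-K1 and H2-D1 shares of vehicle microglia-like cells lay above these intervals, while those of the other 7 members lay inside. Given the few UMIs left for other RNA, lying above does not by itself set B2m, H2-K1 and H2-D1 apart from free RNA. With UMIs summed over the class, the erythroid-like over microglia-like log2 ratio in vehicle was -2.41 [-4.29, -1.06] for H2-T23. It was -2.64 [-5.69, -0.79] for Tapbp and -3.14 [-8.44, -0.66] for Psmb9. For Tap2 the interval ended at -0.92, and for Psmb8 (-0.88 [-2.01, 0.05]) it held 0. The same limit applies to these ratios. Summed over all 26 vehicle erythroid-like cells, Tap1, Tap2 and H2-Q7 had 0 of 88472 UMIs, which allows up to 33.9 CPM (3 counts). H2-Q7 in microglia-like cells is under that limit, so it was not distinguishable from free RNA at this depth. By this comparison alone Tap1 was not either, since the exact interval of its erythroid-like over microglia-like log2 ratio in vehicle reached 0.15. Its level within vehicle microglia-like cells did vary with their interferon response, as given below. In the 8 corticosterone erythroid-like cells Tap1 stood at 106 CPM on 2 UMIs, a log2 ratio over microglia-like cells of 0.41 [-2.63, 2.26], and 4 of these cells had enough UMIs for thinning.

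**Figure D3:**
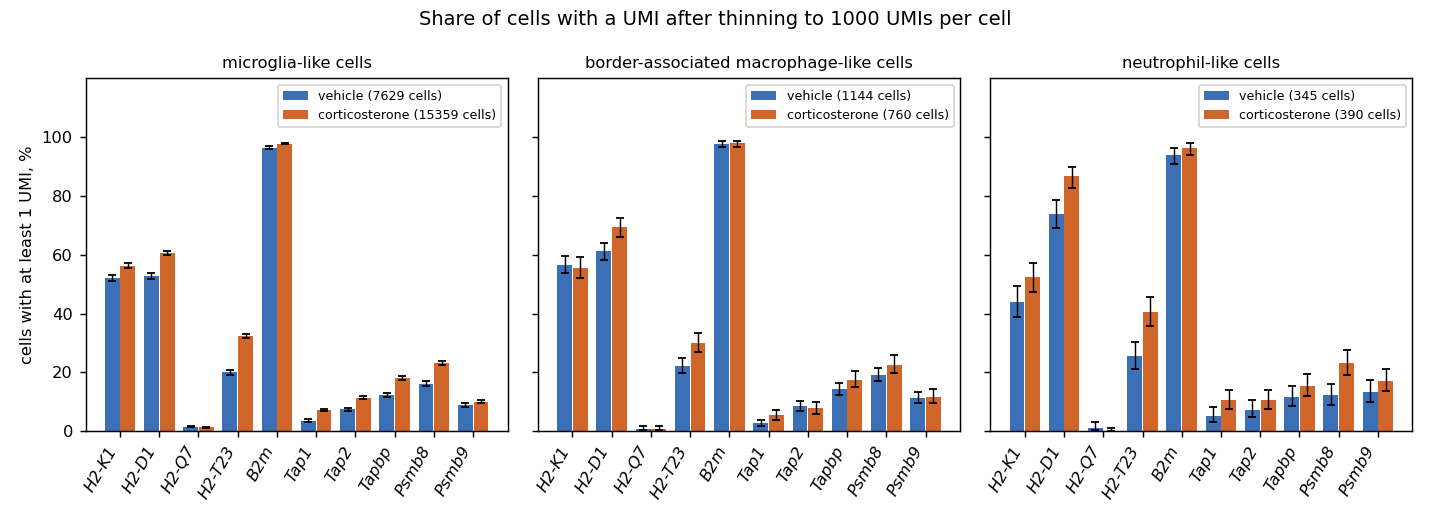
Percentage of cells with at least 1 UMI of each class I gene after thinning every cell to 1000 UMIs, by cell class and library, with 95% exact binomial intervals. The share for H2-T23 in microglia-like cells is 20.0% in vehicle and 32.3% in corticosterone, while B2m is above 90% in both libraries of the 3 classes drawn.

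Genes around the 10 members were read in the same microglia-like cells, from lists of their pathway. Of 13 other peptide processing and loading genes, 12 were higher in corticosterone and 1 lower, 0 past 2-fold, with a median log2 ratio of 0.38. The largest value was that of Psme1, a subunit of the interferon-inducible proteasome activator, at 151 and 255 CPM (0.76 [0.72, 0.81]), and its partner Psme2 stood at 135 and 211 CPM (0.64 [0.59, 0.69]). Calr and Pdia3, which complete the peptide-loading complex with Tapbp, stood at 0.64 [0.62, 0.66] and 0.67 [0.65, 0.69]. The lowest was Lnpep, an aminopeptidase of endosomes, at 147 and 124 CPM (-0.24 [-0.29, -0.19]). The 14 constitutive proteasome genes ran from -0.065 for Psma3 to 0.33 for Psmb5, with a median of 0.19 and 13 above 0. Psmb5, which Psmb8 replaces, thus stood at 0.33 beside 0.55, and Psmb6, which Psmb9 replaces, at 0.14 beside 0.16.

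Other class I and class I-like chains differed in both directions. Of 18 listed, 14 were in the files and 9 reached 5 CPM, with 4 higher, 5 lower, 0 past 2-fold and a median of -0.21. H2-T24, at 17.1 and 30.1 CPM, had the highest ratio (0.81 [0.68, 0.95]), and Mr1, which presents vitamin metabolites, had the lowest at 27.0 and 14.1 CPM (-0.93 [-1.06, -0.80]). H2-Q6, another Qa-2 chain, stood at 25.4 and 17.3 CPM (-0.56 [-0.68, -0.43]), so H2-Q6 and H2-Q7 were both lower in corticosterone. Reads of closely related chains can be split by the counting, which was not tested. Of all words of 100 bases in the last 500 bases of GENCODE transcripts, H2-Q7 had 2.90% in common with H2-Q5 and none with H2-Q6. H2-Q5 was not among the features of the files. H2-T23 had 9.73% in common with Rab33b and Hook2, and the other 8 members had 0% in common with any other gene. Antisense or overlapping partners stood at 18.5 and 10.9 CPM for A930015D03Rik over H2-T23, at 10.2 and 8.09 for Patl2 over B2m and at 24.5 and 27.5 for Zbtb22 beside Tapbp.

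Regulators of class I transcription had a median of 0.015 over 12 genes. Irf2, a repressor and activator of interferon-responsive genes, had the lowest value at 151 and 125 CPM (-0.28 [-0.33, -0.23]), and Nfyc, a subunit of NF-Y, the highest among genes at 20 CPM or more, at 34.6 and 45.2 CPM (0.38 [0.29, 0.48]). Nlrc5, the transactivator of class I genes, was below that level at 3.71 and 8.67 CPM, with a ratio of 1.22 [0.94, 1.51], and was the 1 gene of the 12 past 2-fold; it is named here after its values were seen. Rela and Nfkb1, which form NF-kB, stood at -0.0076 and -0.082. Of 13 interferon receptor and signalling genes at 5 CPM or more, 11 were higher and 3 were past 2-fold, with a median of 0.40. These ran from Jak2, a kinase of the interferon gamma receptor, at -0.035 [-0.13, 0.07], to Usp18, a feedback inhibitor of type I interferon signalling, at 7.51 and 46.6 CPM (2.63 [2.45, 2.82]). All 17 interferon response genes at 5 CPM or more were higher by 2-fold or more, with a median of 2.51, from Ly6e at 1.05 to Irf7 at 2.79 among those at 20 CPM or more. Usp18 is in both interferon lists.

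The class II genes, which present peptides taken up from outside, had a median of 0.017 over 9 genes, 1 of them higher and 2 lower by 2-fold or more. H2-Eb1 was the lowest, at 17.5 and 3.77 CPM (-2.22 [-2.43, -2.01]), with H2-DMa at 1.20 [1.16, 1.23] and H2-Ob at -0.24 [-0.34, -0.13] as the extremes at 20 CPM or more. Of 11 receptors for class I molecules, Pirb alone reached 5 CPM, at 35.2 and 41.5 CPM (0.24 [0.14, 0.34]). Among the other cell types whose markers were read in microglia-like cells, the summed markers of neutrophils stood at 931 and 691 CPM, those of monocytes at 22.8 and 45.5, those of astrocytes at 213 and 94.6, those of endothelial cells at 48.1 and 9.66, those of natural killer cells at 8.76 and 0.083 and those of T cells at 1.31 and 0.935, with Cd3e, Cd3g and Trbc2 at 0 in both libraries. All 10 neutrophil, 8 monocyte and 8 endothelial markers were found in both libraries. Of 7 astrocyte markers 6 were found in vehicle and 7 in corticosterone, of 7 natural killer cell markers 4 and 3, and of 8 T cell markers 3 and 5. The part of these cells in the class I values was not tested.

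Class I levels were then read along the interferon response of single microglia-like cells, since the interferon response genes differed between the libraries by more than most members did. Cells were sorted by their UMIs of the 20 interferon response genes in the files, none of them a member, after thinning to 1000 UMIs. In vehicle 26.5% of cells had 0 such UMIs, 31.7% had 1, 37.9% had 2 to 4 and 3.96% had 5 or more. In corticosterone the shares were 5.87%, 13.9%, 51.9% and 28.3%. The libraries thus differed most in the outer classes. The count leans on the interferon response genes with high levels. Ly6e stood at 1224 CPM in vehicle and 2537 in corticosterone, against 6.56 and 45.4 for Irf7. Cells with the same count may thus differ in the rest of the response, which was not tested.

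**Figure D4:**
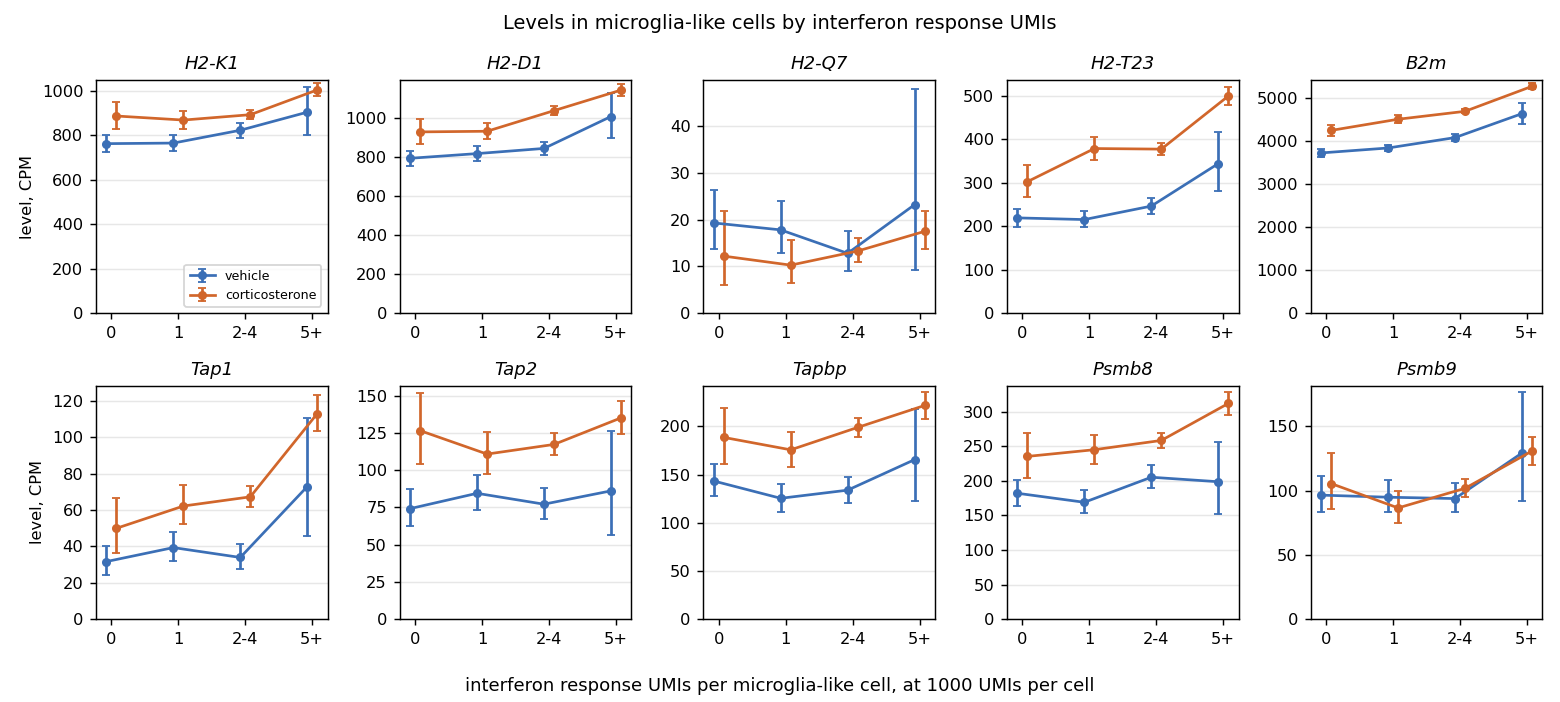
Level of each class I gene in CPM in microglia-like cells, by the number of interferon response UMIs in the cell after thinning to 1000 UMIs, with 95% exact intervals. Tap1 runs from 31.7 CPM at 0 UMIs to 72.8 at 5 or more in vehicle and from 49.9 to 113 in corticosterone, and the corticosterone line is the upper one for 8 of the 10 genes at every point.

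Within a library, Tap1 and H2-T23 were higher in the cells with 5 or more interferon response UMIs than in those with 0. Tap1 went from 31.7 to 72.8 CPM in vehicle and from 49.9 to 113 CPM in corticosterone, and H2-T23 from 220 to 344 and from 303 to 500 CPM. H2-K1 went from 763 to 904 and from 887 to 1004 CPM, and B2m from 3717 to 4626 and from 4239 to 5259 CPM. Between libraries, several members still differed in cells with a like count of interferon response UMIs. The log2 ratio of Tap1 was 0.66 [0.07, 1.23] at 0 UMIs, 0.66 [0.27, 1.06] at 1, 0.99 [0.67, 1.31] at 2 to 4 and 0.63 [0.02, 1.32] at 5 or more, and no interval reached 0. Each point value was below the 1.08 of all microglia-like cells. The intervals at 0, at 2 to 4 and at 5 or more held 1.08, so counting error does not separate them from it. H2-T23 stood at 0.46 [0.24, 0.69], 0.81 [0.65, 0.98], 0.61 [0.50, 0.73] and 0.54 [0.25, 0.84] in the same order, and B2m at 0.19, 0.23, 0.20 and 0.19. Tap2 stood at 0.77 [0.41, 1.13], 0.39 [0.12, 0.67], 0.60 [0.39, 0.82] and 0.65 [0.08, 1.28], with no trend beyond those intervals. H2-Q7 stood at -0.66 [-1.77, 0.33], -0.79 [-1.60, -0.02], 0.05 [-0.50, 0.64] and -0.41 [-1.52, 0.96] on 7 to 106 UMIs, too few to place it. Psmb9 stood at 0.13, -0.13, 0.12 and 0.02, each with an interval that held 0, and so did the interval of H2-K1 at 5 or more UMIs (0.15 [-0.03, 0.33]). Cells without interferon response UMIs had 0 members past 2-fold.

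Microglia-like cells were also clustered again with each gene centred within its library. The members and the pathway lists were left out, except the interferon response list. A subcluster led by Ifit3, Oasl1 and Rsad2 held 159 vehicle and 817 corticosterone cells. In it Tap1 stood at 88.7 and 225 CPM, 2.43 and 3.21 times its level in the other microglia-like cells of the same library. H2-T23 stood at 430 and 756 CPM, 1.82 and 1.96 times the others, and Psmb9 at 160 and 189 CPM, 1.63 and 1.78 times. H2-K1 at 1.18 and 1.43 times and B2m at 1.26 times in both libraries were nearer the other cells. Tapbp stood at 138 CPM in vehicle, 0.982 times the others, and at 278 CPM in corticosterone, 1.37 times. H2-Q7, on 16 and 155 UMIs, stood at 21.5 and 35.0 CPM, 1.31 and 2.64 times, and in this subcluster its library ratio was 0.70 [-0.04, 1.55].

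**Figure D5:**
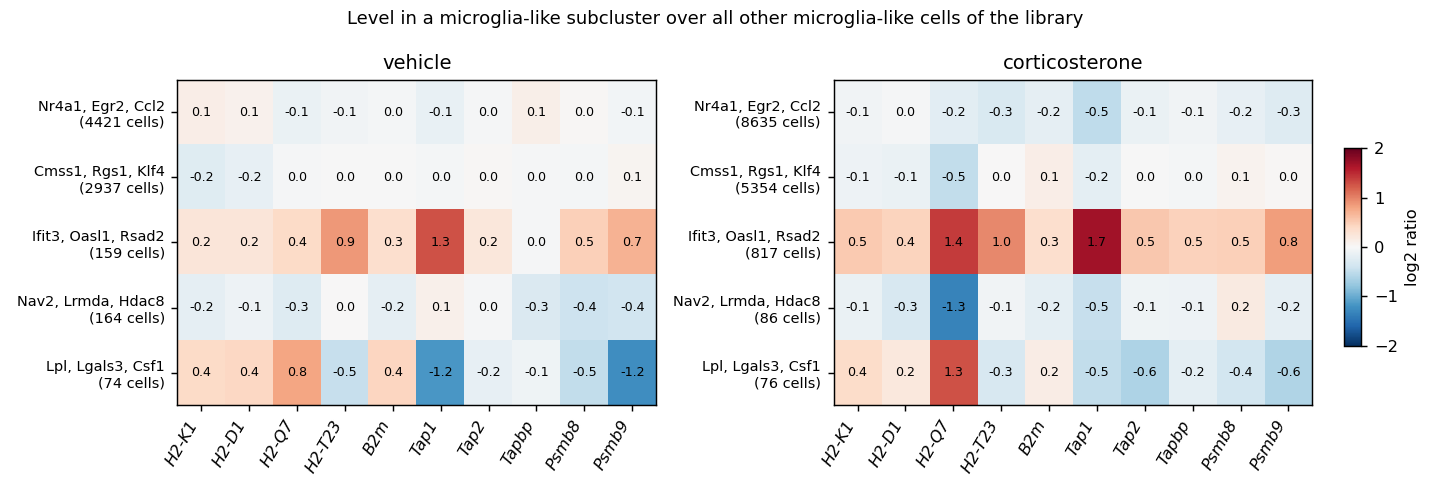
Log2 ratio of each class I gene in a microglia-like subcluster over all other microglia-like cells of the same library, with subclusters named by their leading genes and cell numbers in brackets. Tap1 in the subcluster led by Ifit3, Oasl1 and Rsad2 has the highest value among the 5 subclusters drawn in both panels, and the subcluster led by Lpl, Lgals3 and Csf1 is below 0 for Tap1 and Psmb9 and above 0 for H2-K1, H2-D1, H2-Q7 and B2m in both.

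A subcluster led by Lpl, Lgals3 and Csf1, with 74 vehicle and 76 corticosterone cells, held members on both sides of the other cells. H2-K1 stood there at 1061 and 1180 CPM, 1.30 and 1.29 times the other microglia-like cells, and B2m at 5377 and 5347 CPM, 1.35 and 1.11 times. Tap1 stood at 17.0 and 56.6 CPM on 6 and 31 UMIs, 0.447 and 0.710 times the others, and Psmb9 at 42.4 and 73.0 CPM on 15 and 40 UMIs, 0.423 and 0.656 times. The non-classical chain H2-T23 stood with these, at 175 and 327 CPM, 0.727 and 0.799 times the others. By point values H2-K1, H2-D1, H2-Q7 and B2m were thus above and the other 6 members below the other cells in both libraries. No interval was computed for this comparison. H2-Q7 rested on 10 and 19 UMIs, Tap2 on 25 and 43 and Tapbp on 47 and 99, so the side of these genes is not settled. In the largest subclusters, led by Nr4a1, Egr2 and Ccl2 and by Cmss1, Rgs1 and Klf4, the corticosterone over vehicle ratio of Tap1 was 0.92 [0.81, 1.03] and 0.97 [0.77, 1.17], that of H2-T23 0.67 [0.63, 0.71] and 0.78 [0.70, 0.86], and that of H2-K1 0.11 [0.08, 0.13] and 0.29 [0.25, 0.34]. An alternative added after the data had been seen left out the interferon-high cells of both clusterings. It dropped the cluster with the highest interferon genes in the joint clustering (13 vehicle and 372 corticosterone cells). It also dropped the subcluster led by Ifit3, Oasl1 and Rsad2. Tap1 then stood at 0.94 and thus under 2-fold.

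Border-associated macrophage-like cells were named from markers of the resident macrophages of meninges and vessels, and they also carried much microglial RNA, as given below. In them 9 of the 10 members were higher in corticosterone and H2-Q7 lower. The median log2 ratio was 0.31 beside 0.0026 over 9758 genes. Of these genes 50.3% had a ratio above 0. None of the members was past 2-fold, where 3.07% of the genes were higher and 2.02% lower by that much. H2-K1 stood at 886 and 934 CPM (0.08 [0.03, 0.12]) and H2-D1 at 987 and 1288 CPM (0.38 [0.34, 0.42]). H2-T23 stood at 269 and 367 CPM (0.45 [0.37, 0.52]) and H2-Q7 at 15.4 and 9.97 CPM (-0.63 [-1.06, -0.22]). H2-T23 and H2-D1 had intervals that overlapped, and in cells of 2000 to under 5000 UMIs they stood at 0.28 and 0.34. B2m stood at 4102 and 4635 CPM (0.18 [0.16, 0.20]).

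Tap1, at 38.2 and 68.9 CPM, had the highest ratio of the 10 in these macrophage-like cells (0.85 [0.66, 1.04]). Tap2 stood at 81.8 and 102 CPM (0.32 [0.18, 0.46]), Tapbp at 150.4 and 185 CPM (0.30 [0.19, 0.40]) and Psmb8 at 203 and 296 CPM (0.54 [0.46, 0.63]). For Psmb9, at 112 and 117 CPM, the interval of the ratio held 0 (0.06 [-0.07, 0.19]). H2-K1 and Psmb9 did not keep their direction here. H2-K1 stood at -0.035 with the CPM of each cell averaged, and in cells of 2000 to under 5000 UMIs, a depth window added after the data had been seen, H2-K1 stood at -0.11 and Psmb9 at -0.18. The make-up of the class differed between libraries as well. Summed markers of border-associated macrophages stood at 3826 CPM in vehicle and 8066 in corticosterone (10 of 10 found in each), and 4 microglial genes (P2ry12, Tmem119, Sall1 and Siglech) stood at a median of 0.829 and 0.639 times their level in microglia-like cells. Erythroid markers stood at 44.6 CPM in vehicle, with 5 of 7 found, and at 1085 CPM in corticosterone, with all 7 found. Under a stricter filter (at least 1000 UMIs, 500 genes and at most 10% mitochondrial UMIs) the class split nearly by library. A cluster led by Cd209a, Cd209f and Cd209g held 1010 vehicle and 6 corticosterone cells. Another, led by Fcna, Gpx3 and Cbr2, held 115 and 722. The part of these differences in the class I values was not tested.

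Neutrophil-like cells had a larger excess of H2-D1 and Psmb9 than the macrophage-like cells, with intervals that did not overlap. Of the 10 members 9 were higher in corticosterone, and the median log2 ratio was 0.63 beside -0.18 over 9615 genes, of which 37.3% had a ratio above 0. None was past 2-fold, where 2.83% of the genes were higher and 7.86% lower by that much. H2-D1 stood at 1548 and 2441 CPM (0.66 [0.60, 0.72]), H2-K1 at 743 and 816 CPM (0.14 [0.04, 0.23]), H2-T23 at 270.3 and 429 CPM (0.67 [0.52, 0.81]) and H2-Q7, on 38 and 19 UMIs, at 16.0 and 8.03 CPM (-0.99 [-1.87, -0.16]). The classical chains were again apart, and here by more. B2m stood at 3501 and 4173 CPM (0.25 [0.21, 0.30]).

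The transporter subunits stood at 52.6 and 83.7 CPM for Tap1 (0.67 [0.34, 1.004]) and at 75.4 and 115 CPM for Tap2 (0.61 [0.34, 0.89]) in neutrophil-like cells, without the gap between them that microglia-like cells had. Tapbp stood at 123 and 164 CPM (0.42 [0.20, 0.64]) and Psmb8 at 168 and 270 CPM (0.69 [0.50, 0.87]). Psmb9 stood at 105 and 165 CPM (0.65 [0.42, 0.89]), an interval above that of microglia-like cells. Microglial genes in this class stood at 0.561 and 0.356 times their level in microglia-like cells, and summed monocyte markers stood at 2721 and 7199 CPM, with Vcan at 0 in vehicle and all 8 found in corticosterone. Their part in the result was not tested.

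The neutrophil-like class joined clusters of different make-up. A cluster led by Clec4d, Cxcr2 and Slfn4 held 205 vehicle and 275 corticosterone cells, and a cluster led by the granule genes Camp, Ngp and Ltf held 233 and 122. In the first, H2-D1 stood at 1916 and 3334 CPM (0.80 [0.73, 0.87]), H2-K1 at 926 and 1159 CPM (0.32 [0.21, 0.43]) and Tap1 at 55.1 and 109 CPM (0.99 [0.58, 1.41]). In the granule gene cluster H2-D1 stood at 1023 and 1369 CPM (0.42 [0.30, 0.54]), H2-K1 at 480.5 and 405 CPM (-0.25 [-0.44, -0.06]) and Tap1 at 49.1 and 53.0 CPM (0.11 [-0.47, 0.70]). H2-K1 thus lay on opposite sides of 0 in the 2 clusters, and their cell numbers differed between the libraries. B2m stood at 0.38 [0.33, 0.43] in the first cluster and 0.07 [-0.01, 0.14] in the granule gene cluster, and Tap2 at 1.002 [0.65, 1.37] and 0.0045 [-0.45, 0.47]. Tapbp, at 0.35 [0.08, 0.62] and 0.72 [0.29, 1.15], and Psmb8, at 0.76 [0.53, 0.98] and 0.62 [0.30, 0.94], had intervals that overlapped between the clusters.

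Monocyte-like cells, with 48 and 110 cells, had higher levels of H2-K1, H2-D1 and B2m than the other named classes. H2-D1 stood at 2283 and 2561 CPM (0.17 [0.01, 0.32]), H2-K1 at 1470 and 1381 CPM (-0.09 [-0.28, 0.10]) and B2m at 5469 and 5443 CPM (-0.01 [-0.11, 0.09]). Tap1 stood at 117 and 146 CPM (0.32 [-0.35, 1.05]), H2-T23 at 429 and 551 CPM (0.36 [0.02, 0.72]) and Psmb8 at 440.0 and 416 CPM (-0.08 [-0.43, 0.29]). These intervals held 0 except for H2-D1 and H2-T23. Tap2 rested on 7 vehicle UMIs. The make-up of this class differed between libraries, with summed monocyte markers at 5397 and 13182 CPM (8 of 8 found in each) and endothelial markers at 27.8 CPM in vehicle, with 2 of 8 found, and 221 CPM in corticosterone, with 8 of 8. It held 8 and 54 cells at a clustering resolution of 0.3 and 15 and 70 cells when clustered without the listed genes. The part of this in the class I values was not tested.

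The order of a gene's level across classes was read within each library. H2-D1 in vehicle went from 536 CPM in the unnamed low-UMI cluster through 845 in microglia-like, 987 in border-associated macrophage-like and 1548 in neutrophil-like to 2283 in monocyte-like cells, and in corticosterone through 577, 1069, 1288, 2441 and 2561 CPM. Of the neighbours in corticosterone, neutrophil-like over microglia-like cells stood at a log2 ratio of 1.19 [1.15, 1.23] and monocyte-like over microglia-like cells at 1.26 [1.20, 1.32], with intervals that overlapped. H2-K1 in vehicle went from 586 CPM in the unnamed cluster through 743 in neutrophil-like, 817 in microglia-like and 886 in border-associated macrophage-like to 1470 in monocyte-like cells. In corticosterone the same order held at 607, 816, 920, 934 and 1381 CPM, and the macrophage-like over microglia-like ratio was 0.02 [-0.02, 0.06]. H2-K1 and H2-D1 thus placed neutrophil-like cells on opposite sides of microglia-like cells. The log2 ratio of neutrophil-like over microglia-like cells was -0.14 [-0.21, -0.07] and -0.17 [-0.24, -0.11] for H2-K1 and 0.87 [0.82, 0.92] and 1.19 [1.15, 1.23] for H2-D1.

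B2m was within a narrow range in the named myeloid classes, with border-associated macrophage-like over microglia-like cells at 0.04 [0.02, 0.05] in vehicle and -0.06 [-0.07, -0.04] in corticosterone, neutrophil-like at -0.19 and -0.21 and monocyte-like at 0.45 and 0.17. In the unnamed cluster, whose median depth was 964 and 1232.5 UMIs, it stood at -1.07 and -1.08. Tap1 was higher in neutrophil-like than in microglia-like cells in vehicle (0.48 [0.20, 0.75]) and not beyond counting error in corticosterone (0.07 [-0.14, 0.28]). Psmb9 showed the opposite order, at 0.08 [-0.11, 0.26] in vehicle and 0.57 [0.42, 0.72] in corticosterone. Psmb8 in macrophage-like over microglia-like cells stood at 0.12 [0.05, 0.18] and 0.11 [0.04, 0.17].

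Genes with the most similar pattern were sought for 4 members over the 8 combinations of library with microglia-like, border-associated macrophage-like, neutrophil-like and unnamed low-UMI cells, by Pearson's r of log2(CPM + 10) among 6579 genes. The 8 points share 2 libraries, and the unnamed cluster is far shallower than the rest, so r is given as a description. For H2-K1 the nearest were Eif3f (r = 0.995), Grpel1, Naaa, Atp5g3 and Ggh, and for B2m they were Rwdd1 (0.995), Tmbim4, Mrpl32, Arf1 and Psmd8. For Tap1 they included B4galnt1 (0.972), Ogfr, C5ar1 and Hacd2, and for Psmb8 they were Sap30l (0.986), Psmb5 (0.985), Dbnl, Dusp1 and Hnrnpf. Among the members themselves, r was 0.978 between H2-K1 and B2m, 0.966 between Psmb8 and H2-T23, 0.843 between Tap1 and Tap2 and 0.478 between Tap1 and Psmb9.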

How the data were processed

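The members and the gene lists were chosen with earlier results of these data known. The authors deposited raw UMI counts per gene and barcode for 2 libraries, built with a Singleron GEXSCOPE kit and sequenced on a NovaSeq instrument per the labels' protocols. The submitters' processing notes name bcl2fastq 2.19 and GRCm38; the aligner, the counting rule and the cell calling are not given in the sources used here. Cells with at least 500 UMIs, 300 genes and at most 20% mitochondrial UMIs were kept. Scanpy 1.11.5 and Leiden clustering (2000 variable genes, 30 components, 15 neighbours, resolution 0.5) ran over both libraries together, and clusters were named when at least 3 of a class's markers were found in 10% of cells at 2 times their level elsewhere, and otherwise microglia-like where 3 or more microglia markers were present. Scrublet called 0 cells in either library, which was taken as a failed run, so no doublets were removed. UMIs were summed per class and library, scaled to CPM and compared as log2 ratios with exact conditional 95% intervals (SciPy 1.17.1); edgeR 4.0.16 and DESeq2 1.42.0 gave only the alternative scaling factors, and the scripts were tested on simulated data. Genes with a mean of 5 CPM entered each background. Named genes were all 10 members, the highest and lowest gene of each pathway list at 20 CPM or more, and the 5 genes most like H2-K1, B2m, Tap1 and Psmb8, of which 1 is not reported here; Psme2, Calr, Pdia3, Psmb6, H2-Q6, Nlrc5, H2-Eb1, Rela, Nfkb1 and the genes overlapping a member were added after their values were seen. Mitochondrial, ribosomal protein, Gm and Rik genes were left out of the likeness search. Promoter windows were from RefSeq (GRCm38.p6).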

Additional observations from a re-analysis of the deposited data

How the results depend on the processing

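In microglia-like cells the members' median log2 ratio of 0.45 stayed between 0.30 and 0.56 over 18 alternatives, and in border-associated macrophage-like cells that of 0.31 stayed between 0.27 and 0.35 over 14. In neutrophil-like cells the median of 0.63 ran from 0.25 to 1.14 over 16. It was 0.82 with edgeR's TMM factors, 0.81 with DESeq2's size factors, 0.89 with the CPM of each cell averaged, 1.14 in cells of 2000 to under 5000 UMIs, 0.77 in the Clec4d, Cxcr2 and Slfn4 cluster alone and 0.25 in the Camp, Ngp and Ltf cluster alone. The number of members past 2-fold in microglia-like cells was 1, and it was 0 without the interferon-high clusters and 0 in cells with no interferon response UMI. In neutrophil-like cells it was 0, and it was 6 in cells of 2000 to under 5000 UMIs and 1 in the Clec4d, Cxcr2 and Slfn4 cluster. H2-K1 reversed to -0.035 (CPM of each cell averaged) and -0.11 (cells of 2000 to under 5000 UMIs) in border-associated macrophage-like cells and to -0.25 in the Camp, Ngp and Ltf cluster of neutrophil-like cells. Psmb9, whose interval held 0 there, stood at -0.18 in border-associated macrophage-like cells of 2000 to under 5000 UMIs. The cause was not tested. The depth window, the single neutrophil-like clusters and the runs without the interferon-high clusters, mixed subclusters or shared barcodes were chosen after seeing the data. No paired analysis was possible because each group had 1 library. Depth limited H2-Q7 in every class and most members in monocyte-like cells.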
